A study of Mus musculus with 12 samples.

Results

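The genes described here are 36 genes of fatty acid oxidation and ketone body metabolism, chosen by symbol from the 15846 genes of a table of mouse liver RNA counts. All 36 were in the table, and all 36 were among the 14736 genes that passed a filter on low counts. By role, 3 genes are transcriptional regulators, 5 take up carnitine or shuttle acyl groups, 5 make or cleave acyl-CoA, 5 are acyl-CoA dehydrogenases, 3 carry electrons to the respiratory chain and 5 complete the mitochondrial cycle. A further 3 handle unsaturated chains, 4 are peroxisomal, 1 is a ketone body enzyme and 2 are other targets of the nuclear receptor PPAR-alpha. The livers came from 12 C57BL/6 mice aged 5 months, 3 in each of 4 groups. The groups were Shp Hep-/- mice, called KO here, on the diet that the labels name HFCF, wild-type (WT) mice on HFCF, KO mice on chow and WT mice on chow. The product of Shp (Nr0b2 in the table) is a nuclear receptor that lacks a DNA-binding domain and represses transcription through other nuclear receptors. The sources used here do not spell out Hep-/-, which by its form marks a deletion in hepatocytes, and do not give the Cre driver, the time on the diet or the makeup of HFCF.

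In liver, fatty acids are activated to acyl-CoA, passed into mitochondria as carnitine esters, and shortened in repeated cycles of dehydrogenation, hydration, a further dehydrogenation and thiolytic cleavage. Very long chains are first shortened in peroxisomes, and the acetyl-CoA made in fasting liver is turned into ketone bodies for other tissues. PPAR-alpha, which binds DNA with the retinoid X receptor, is the receptor best known for switching these genes on in hepatocytes.

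RNA was sequenced from whole liver with total counts of 13967116 to 18324134 per library. In what follows CPM is the count relative to library size after TMM scaling, ± after CPM is the SD over 3 livers, and ± beside a log2 fold change gives the standard error in edgeR's quasi-likelihood fit, made on all 12 libraries. Adjusted p is the Benjamini-Hochberg value of that fit over all 14736 tested genes, and a gene was called at an adjusted p under 0.05. Nr0b2 checked the genotype labels, with 0.21 to 0.509 CPM in KO and 47.6 to 53.4 CPM in WT livers on HFCF, and 0.552 to 1.01 CPM in KO and 22.4 to 49.3 CPM in WT livers on chow. Summed CPM of 12 hepatocyte markers was 54810 to 58420 in KO HFCF, 39204 to 53706 in WT HFCF, 51639 to 60701 in KO chow and 59900 to 62591 in WT chow livers. Summed CPM of 9 macrophage markers was 783 to 836 in KO HFCF, 324 to 678 in WT HFCF, 573 to 593 in KO chow and 350.2 to 394 in WT chow livers. WT HFCF replicate 1 stood apart from replicates 2 and 3, since chi-square divided by its degrees of freedom was 32.17 and 34.42 for its pairs with them and 11.21 for their own pair.

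The genes differed widely in level. On the length-scaled FPKM of the authors, the highest mean over 12 livers was that of Acaa1b, which encodes a peroxisomal thiolase, at 1029.9 FPKM, followed by the mitochondrial thiolase gene Acaa2 at 836 FPKM and by Ehhadh, the peroxisomal bifunctional enzyme gene, at 738 FPKM. They ranked 61, 73 and 82 among the 15846 genes. Acaa1b held 994 ± 179 FPKM in KO HFCF, 1312 ± 225 FPKM in WT HFCF, 1032 ± 184 FPKM in KO chow and 781 ± 116 FPKM in WT chow livers (SD, n = 3 each). Ehhadh held 739 ± 83.4 FPKM in KO HFCF, 377 ± 60.2 FPKM in WT HFCF, 1172 ± 405 FPKM in KO chow and 663 ± 181 FPKM in WT chow livers. The order of these genes therefore changed with the group, since Ehhadh lay above Acaa2 in KO HFCF livers (712 ± 85.8 FPKM) by less than the SD and far below it in WT HFCF livers (939 ± 44.9 FPKM).

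The lowest levels were those of Ppargc1a, which encodes a transcriptional coactivator, at 1.77 FPKM, and of Pdk4, a pyruvate dehydrogenase kinase gene, at 2.5 FPKM. Between these ends, Acsl1, the long-chain acyl-CoA synthetase gene, stood at 378 FPKM, Acadvl, the very-long-chain acyl-CoA dehydrogenase gene, at 261 FPKM, and Cpt1a, which encodes the enzyme that makes acylcarnitines for entry into mitochondria, at 243 FPKM. Hadha and Hadhb encode the subunits of the mitochondrial trifunctional protein and are neighbours on opposite strands of chromosome 5, yet Hadha stood at 133 FPKM and Hadhb at 10.9 FPKM. Of the 50-base stretches of the annotated Hadhb transcripts, 19.7% also occur in transcripts of other genes, mostly Gm13910, and the sources used here do not say how the authors assigned such reads.

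**Figure D1:**
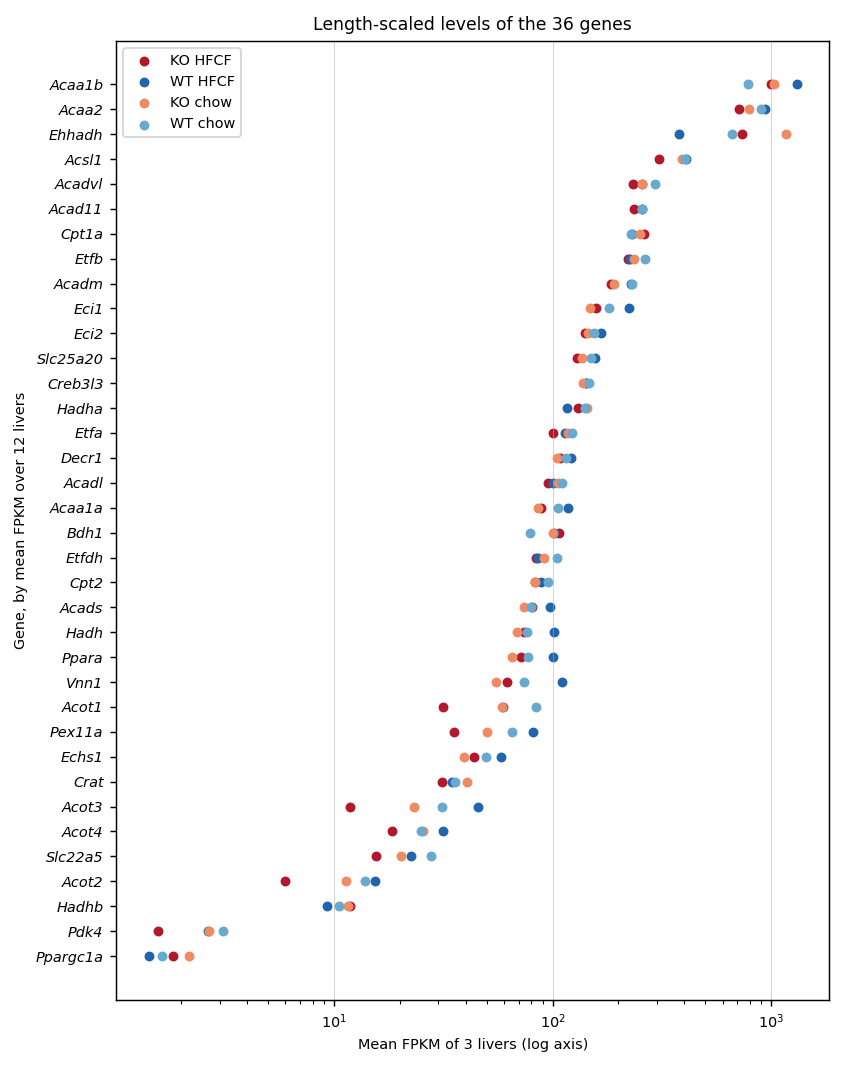
Mean FPKM (authors' values, log axis) of each of the 36 genes in each group of 3 livers, with genes ordered from the highest mean over all livers at the top to the lowest at the bottom. The mean over 12 livers is 1029.9 for Acaa1b and 1.77 for Ppargc1a, and the 4 group means of Ehhadh lie between 377 in WT HFCF and 1172 in KO chow livers.

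Several of the genes have close copies. Acot1, Acot2, Acot3 and Acot4, which encode acyl-CoA thioesterases that release free fatty acids from CoA in different compartments, lie in tandem on chromosome 12 (mm10, Acot2 at chr12:83987861-83993873, Acot1 at chr12:84009498-84017671, Acot4 at chr12:84038379-84044723 and Acot3 at chr12:84052144-84059565, all on the plus strand). The share of 50-base stretches that also occur in transcripts of other genes was 19.2% for Acot1, 27.7% for Acot2, 19.1% for Acot3 and 4.53% for Acot4. It was 30.5% for Acaa1b and 12.9% for its neighbour Acaa1a, 26.3% for the carnitine transporter gene Slc22a5, mostly with Slc22a21, and 44.8% for the electron transfer flavoprotein gene Etfb, mostly with Gm45233. Values of these genes are uncertain to the extent that reads could be split between copies. Acot3 and Acot4 overlap 4732463B04Rik, Acadvl overlaps Dvl2, Acaa1a overlaps Myd88 and Acaa1b overlaps Dlec1 on the other strand. The libraries were stranded, per the labels' protocols, and the sources used here do not give the strand setting of the counting.

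PPAR-alpha with its partner binds a direct repeat of a hexamer with a single base between the copies, called DR1, so promoters were searched for it. RefSeq promoters (GRCm38.p6, 250 bases before to 50 after the gene start) were at hand for 32 of the 36 genes. The motif AGGTCANAGGTCA, with at most 2 mismatches in its 12 fixed letters and on both strands, was found in 5 of 32 (15.6%), against 1190 of 27025 genes in the promoter table (4.4%). The 5 matches are shown 5′ to 3′ on the strand of the gene, with the whole matched stretch in capitals. Each has 2 mismatches, the most allowed, and the capitals include these letters and the free base. On chr7:140116484-140116512 of the minus strand, chr9:55512300-55512328 of the minus strand, chr9:108662134-108662162 of the plus strand, chr10:81092780-81092808 of the minus strand and chr12:84038358-84038386 of the plus strand they read, in this order:
Echs1: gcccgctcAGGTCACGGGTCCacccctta
Etfa: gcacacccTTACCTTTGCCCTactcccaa
Slc25a20: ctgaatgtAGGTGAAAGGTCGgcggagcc
Creb3l3: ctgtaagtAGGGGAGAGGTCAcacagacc
Acot4: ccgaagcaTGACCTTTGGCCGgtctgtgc
The matches in Etfa and Acot4 read on the opposite strand, so the capitals there are to be compared with the reverse complement of the motif. A gene was counted once if any of its listed promoters held a match. RefSeq lists more than a single start for Creb3l3, and its match stands before a start inside the gene as the table gives it. The exact hexamer AGGTCA, which is contained in the longer motifs, was found in 7 of 32 genes (21.9%), against 18.1% of all genes in it. The extended form TCAAGGTCA, known from estrogen-related receptors, was found in 0 of 32, against 126 of 27025 (0.466%). A match describes letters in this window, and the lack of one says only that these letters are not in it. Of the 5 genes with a DR1 match, Echs1 was called for genotype, and Etfa, Slc25a20, Creb3l3 and Acot4 were called in none of the 5 comparisons.

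**Figure D2:**
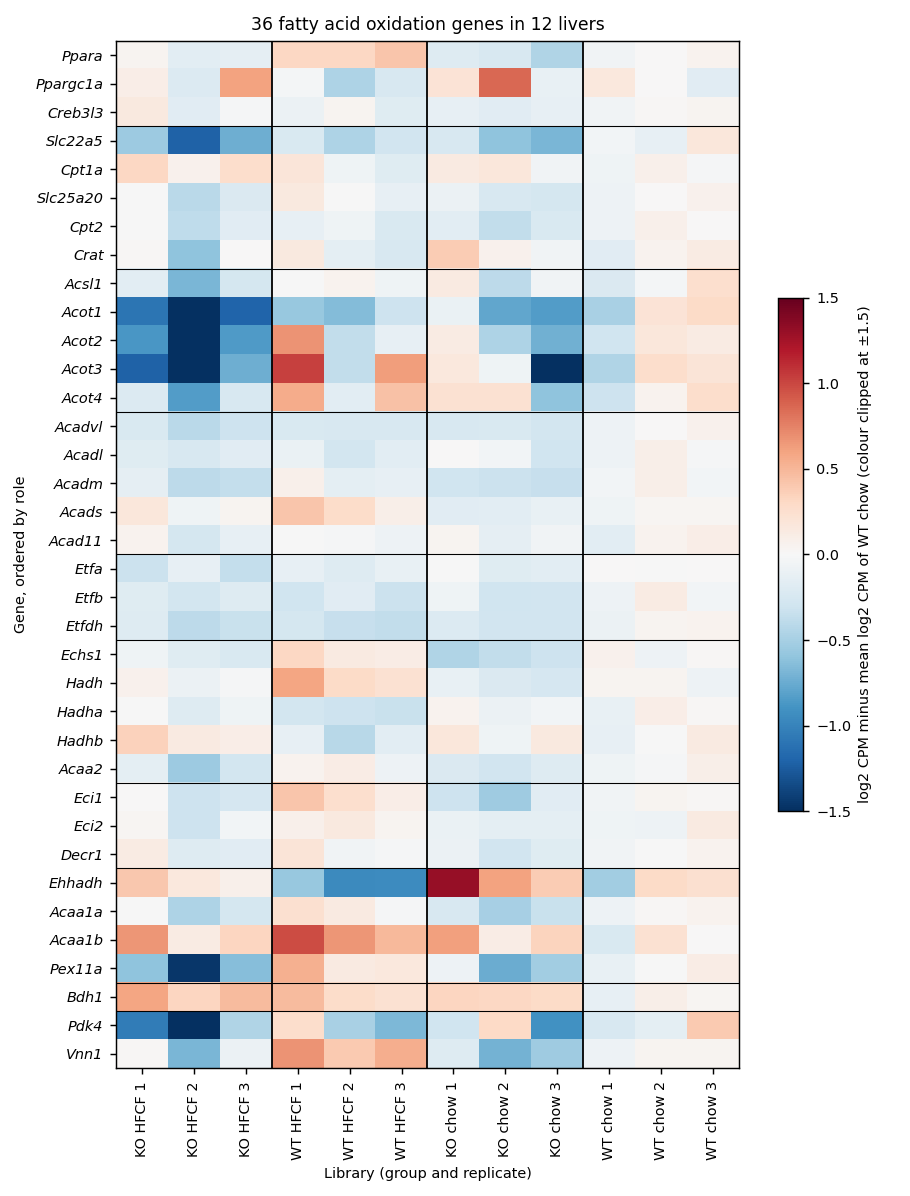
Each row is 1 of the 36 genes, ordered by role, and each column 1 liver. Colour is log2 CPM minus the mean log2 CPM of the WT chow livers, clipped at ±1.5. The lowest colours are in Acot1, Acot2, Acot3, Pex11a and Pdk4 in KO HFCF replicate 2 and in Acot3 in KO chow replicate 3, and the highest is Ehhadh in KO chow replicate 1, at 4862 CPM.

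The first comparison asked how loss of Shp changed these genes on HFCF. In KO livers 12 of the 36 genes were lower than in WT and 2 were higher, so 33.3% were called down and 5.56% up. Of all tested genes, 19.1% were called, 8.52% down and 10.6% up. Highly expressed genes were called down more often, with 18.2% down and 11.1% up among the 2861 genes that averaged 50 CPM or more, and of the 33 members in that class 11 were down and 2 up. The median log2 fold change of the 36 genes was -0.21, against 0.02 for all tested genes, and 27 of the 36 values were negative. In 14 genes every KO liver lay below every WT liver and in 3 every KO liver lay above, against 15.7% and 18.5% of all tested genes. Summed macrophage marker CPM was higher in KO HFCF than in WT HFCF livers, with 7 of 9 markers called up. Summed hepatocyte marker CPM was also higher, at 54810 to 58420 in KO HFCF and 39204 to 53706 in WT HFCF livers. Of the 12 hepatocyte markers 3 were called up and 1 down. Of 5 tested lymphocyte markers 3 were called up, with sums over the list of 4.61 to 7.62 CPM in KO and 1.55 to 2.5 CPM in WT livers. Of 6 listed adipocyte markers only Plin4 and Cfd were in the table, and both were called down. The listed Adipoq, Plin1, Lep and Retn were not in the table. The part of these cell types in the result was not tested, and in whole liver a changed share of hepatocytes and changed RNA per hepatocyte cannot be told apart.

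Among the regulators, Ppara (chr15:85734983-85802819, plus strand) was lower in KO. It held 308, 267 and 272 CPM in the KO livers, against 369, 370.2 and 398 CPM in the WT livers. The groups did not overlap, and the log2 fold change was -0.43 ± 0.09, adjusted p = 0.00405. Creb3l3, which encodes a liver transcription factor of the endoplasmic reticulum that acts with PPAR-alpha, and Ppargc1a were not called (0.07 ± 0.09, adjusted p = 0.677 and 0.44 ± 0.24, adjusted p = 0.229).

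In carnitine uptake and shuttling, Slc22a5, the plasma membrane carnitine transporter, was lower at 49 ± 11.1 CPM in KO and 68.6 ± 5.72 CPM in WT (SD, n = 3 each; -0.49 ± 0.15, adjusted p = 0.0401). Its call ended without WT HFCF replicate 1 or 3 or KO HFCF replicate 2 or 3, with an adjusted p of 0.0565 to 0.112. The steps by which acyl groups enter mitochondria were not called. Cpt1a was at 1155 ± 104 CPM in KO and 984 ± 127 CPM in WT (0.23 ± 0.11, adjusted p = 0.154), and the carnitine-acylcarnitine translocase gene Slc25a20 (-0.21 ± 0.10, adjusted p = 0.186), Cpt2, the acyltransferase of the inner membrane (-0.04 ± 0.10, adjusted p = 0.809), and the carnitine acetyltransferase gene Crat (-0.09 ± 0.16, adjusted p = 0.753) were not called.

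The 2 largest falls on the log2 scale were those of the thioesterase genes Acot3 and Acot2. Acot1, a cytosolic thioesterase gene, stood at 60.5, 36.2 and 56.1 CPM in the KO livers, against 86.8, 82.4 and 104 CPM in the WT livers. Acot2, its mitochondrial relative, stood at 16.7, 6.71 and 17 CPM in the KO livers, against 48.7, 23.6 and 28 CPM in the WT livers. Acot3, a peroxisomal relative, stood at 34.9, 12 and 48.4 CPM in the KO livers, against 165, 62.5 and 124 CPM in the WT livers. In all 3 genes every KO liver lay below every WT liver, and the lowest value was that of KO replicate 2. The log2 fold changes were -0.84 ± 0.24, adjusted p = 0.0238 for Acot1, -1.31 ± 0.33, adjusted p = 0.0129 for Acot2 and -1.88 ± 0.58, adjusted p = 0.0369 for Acot3. Acot4, also peroxisomal, stood at 54.5, 35.3 and 53.2 CPM in the KO livers, against 92.7, 56.3 and 85.1 CPM in the WT livers, which did not overlap either but was not called (-0.71 ± 0.24, adjusted p = 0.0522). The call of Acot1 ended without WT HFCF replicate 3 (0.073) or KO HFCF replicate 2 (0.0855), and that of Acot2 without WT HFCF replicate 1 (0.0546). The call of Acot3 ended without WT HFCF replicate 1 or 3 or KO HFCF replicate 1 or 2 (0.0688 to 0.117). It also ended with limma voom (0.0505) and with the replicate number as a covariate (0.0504). Acsl1, which makes the acyl-CoA that these enzymes cleave, was at 2998 ± 556 CPM in KO and 3818 ± 157 CPM in WT and was not called (-0.35 ± 0.16, adjusted p = 0.149).

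The genes of acyl-CoA dehydrogenases and of electron transfer gave no call. The 5 acyl-CoA dehydrogenase genes Acadvl, Acadl, Acadm, Acads and Acad11 had log2 fold changes between -0.23 and -0.02, and the electron transfer genes Etfa, Etfb and Etfdh between -0.12 and 0.04. The lowest adjusted p among these 8 was 0.092, for the medium-chain dehydrogenase gene Acadm.

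Later steps of the mitochondrial cycle differed from each other in direction. Echs1, the short-chain enoyl-CoA hydratase gene (chr7:140105710-140116476, minus strand, whose promoter match is shown above), held 252, 232 and 225 CPM in the KO livers, against 327, 290.3 and 286 CPM in the WT livers. Hadh, the gene of the dehydrogenase that follows it, held 401, 360.2 and 378 CPM in the KO livers, against 574, 468 and 448 CPM in the WT livers. Acaa2, the thiolase gene, held 1246, 949 and 1138 CPM in the KO livers, against 1426, 1485 and 1306 CPM in the WT livers. In these 3 genes the KO livers lay below the WT livers, with log2 fold changes of -0.35 ± 0.08, adjusted p = 0.00854 for Echs1, -0.39 ± 0.10, adjusted p = 0.0128 for Hadh and -0.34 ± 0.10, adjusted p = 0.0295 for Acaa2. Hadhb, the thiolase subunit of the trifunctional protein, held 89.7, 77.6 and 75.8 CPM in the KO livers, against 64.9, 52.9 and 63.3 CPM in the WT livers, so that it was higher in KO (0.42 ± 0.10, adjusted p = 0.0105). Hadha, the other subunit, held 757, 666 and 727 CPM in the KO livers, against 629.9, 612 and 601 CPM in the WT livers, without overlap and without a call (0.22 ± 0.08, adjusted p = 0.0805). The call of Acaa2 ended without WT HFCF replicate 1 (0.0546), WT HFCF replicate 2 (0.102) or KO HFCF replicate 2 (0.0766) and with the compared groups alone (0.0708), and that of Hadhb ended without WT HFCF replicate 2 (0.053) or KO HFCF replicate 1 (0.0631). Of the auxiliary enzymes, Eci1, which moves double bonds so that unsaturated chains can enter the cycle, was lower at 176 ± 21.2 CPM in KO and 239.8 ± 26.1 CPM in WT (-0.44 ± 0.11, adjusted p = 0.0123). The other auxiliary enzyme genes, Eci2 (-0.19 ± 0.09, adjusted p = 0.181) and Decr1, a dienoyl-CoA reductase gene (-0.12 ± 0.10, adjusted p = 0.472), were not called.

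The peroxisomal genes moved apart. Ehhadh (chr16:21761287-21787844, minus strand), whose product carries the hydratase and dehydrogenase steps in peroxisomes, held 2614, 2191 and 2079.9 CPM in the KO livers, against 1329.5, 1014 and 1023 CPM in the WT livers. Pex11a (chr7:79735957-79743131, minus strand), which encodes a membrane protein of peroxisome division, held 102, 56.9 and 99.9 CPM in the KO livers, against 226, 172 and 173 CPM in the WT livers. Neither gene's groups overlapped. Ehhadh was 2.04-fold higher in KO (1.03 ± 0.24, adjusted p = 0.0079), whereas the log2 fold change of Pex11a was -1.14 ± 0.21, adjusted p = 0.00176. Acaa1a held 194, 142 and 163 CPM in the KO livers, against 230.1, 214 and 193 CPM in the WT livers, with KO replicate 1 above WT replicate 3, and was called lower (-0.36 ± 0.11, adjusted p = 0.0379). Acaa1b held 2437, 1673 and 1917 CPM in the KO livers, against 3037, 2434 and 2159 CPM in the WT livers, which overlapped, and was not called (-0.34 ± 0.17, adjusted p = 0.195). The call of Acaa1a ended without WT HFCF replicate 1 or 2 or KO HFCF replicate 2 or 3 (0.0732 to 0.108) and with the compared groups alone (0.0719).

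The ketone body enzyme Bdh1, which interconverts acetoacetate and beta-hydroxybutyrate, was not called (0.14 ± 0.09, adjusted p = 0.326). Vnn1 (chr10:23894688-23905343, plus strand), which encodes a pantetheinase and is a known PPAR-alpha target in liver, held 182, 112 and 169 CPM in the KO livers, against 288, 236 and 263 CPM in the WT livers. The groups did not overlap, and Vnn1 was lower in KO (-0.76 ± 0.16, adjusted p = 0.00491). Pdk4 was not called (-0.69 ± 0.33, adjusted p = 0.176). In this comparison 7 of the 14 calls held under each of the 8 other settings and each omission of a library, namely Ppara, Echs1, Hadh, Eci1, Ehhadh, Pex11a and Vnn1. Without KO HFCF replicate 2 the number of members called was 9.

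**Figure D3:**
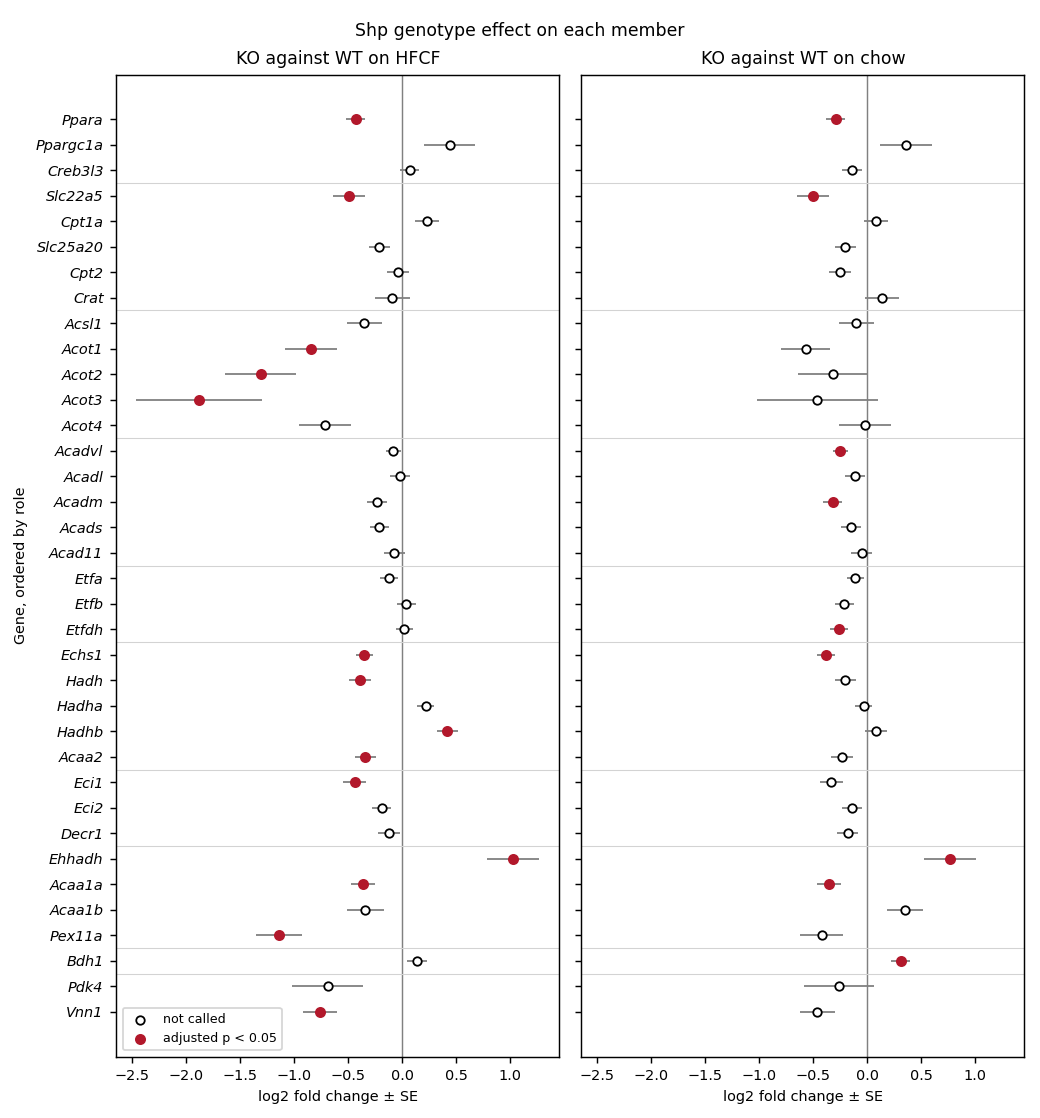
Log2 fold change of KO over WT on HFCF (left) and on chow (right) for the 36 genes ordered by role, from the edgeR fit of all 12 libraries, with bars of 1 standard error. Filled red points have an adjusted p under 0.05, and on HFCF 12 lie left of 0 and 2 right of it, against 7 and 2 on chow.

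The same genotype comparison was made on chow. In KO livers 7 of the 36 genes were lower than in WT (19.4%) and 2 were higher (5.56%), where 15.5% of all tested genes were called, 5.82% down and 9.72% up. Of the 2861 genes that averaged 50 CPM or more, 15.3% were called down and 5.66% up, and of the 33 members of that class 7 were down and 2 up. That share of falls lies near the share in highly expressed genes. The median was -0.20, against 0.00 for all tested genes, with 29 of 36 values negative. In 17 genes every KO liver lay below every WT liver and in 2 every KO liver lay above, against 16.8% and 19.4% of all tested genes. Macrophage markers were called up in 5 of 9, hepatocyte markers were called down in 3 of 12, and 1 of 2 adipocyte markers was called down. Stellate cell and fibroblast markers were called up in 4 of 8, with summed levels of 528 to 549.7 CPM in KO and 321 to 408 CPM in WT livers, and lymphocyte markers in 3 of 5, with 5.04 to 9.26 CPM in KO and 1.13 to 2.49 CPM in WT livers. The part of these cell types in the result was not tested.

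Echs1 had the lowest adjusted p. It held 193, 205 and 212 CPM in the KO livers, against 276, 251 and 267 CPM in the WT livers. The groups did not overlap, the log2 fold change was -0.38 ± 0.08, adjusted p = 0.0076, and this was the only one of the 9 calls that held under each of the 8 other settings and each omission, with an adjusted p of at most 0.0331. Acadm held 556, 547 and 542 CPM in the KO livers, against 666, 729.6 and 665 CPM in the WT livers (-0.32 ± 0.09, adjusted p = 0.0287). Acadvl held 679.5, 684 and 661 CPM in the KO livers, against 762, 807 and 839 CPM in the WT livers (-0.25 ± 0.07, adjusted p = 0.0373). Both dehydrogenase genes were thus lower in every KO liver. Ppara held 262, 252 and 219 CPM in the KO livers, against 288, 299 and 309 CPM in the WT livers, again without overlap (-0.29 ± 0.09, adjusted p = 0.0383). Etfdh, which passes electrons from the flavoprotein to ubiquinone, was at 602 ± 18.7 CPM in KO and 722 ± 39.3 CPM in WT (-0.26 ± 0.08, adjusted p = 0.0413), Slc22a5 at 60.8 ± 10.5 CPM in KO and 86 ± 8.98 CPM in WT (-0.50 ± 0.15, adjusted p = 0.0401) and Acaa1a at 152 ± 13.6 CPM in KO and 195 ± 9.55 CPM in WT (-0.35 ± 0.11, adjusted p = 0.0456).

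Ehhadh and Bdh1 were the members called higher in KO on chow. Ehhadh held 4862, 2991 and 2555 CPM in the KO livers, against 1370.2, 2391 and 2323 CPM in the WT livers, a log2 fold change of 0.77 ± 0.24, adjusted p = 0.0404. Every KO liver lay above every WT liver, and KO replicate 1 was the highest of all 12 livers. Bdh1 held 379, 376 and 370.2 CPM in the KO livers, against 278, 322 and 309 CPM in the WT livers, without overlap (0.31 ± 0.09, adjusted p = 0.0391). The Acot genes were not called on chow. Acot1 held 121, 75.2 and 72.4 CPM in the KO livers, against 91.9, 148 and 158 CPM in the WT livers (-0.57 ± 0.23, adjusted p = 0.114). Acot2 held 33.2, 22.2 and 18.5 CPM in the KO livers, against 24.8, 34.4 and 33.3 CPM in the WT livers (-0.32 ± 0.32, adjusted p = 0.535). Both overlapped between genotypes. Acot3 held 90.1, 76.8 and 12.7 CPM in the KO livers, against 59, 96.6 and 91.9 CPM in the WT livers, with KO replicate 3 far below the other livers on chow (-0.46 ± 0.56, adjusted p = 0.624). Acot4 held 73.5, 74 and 41.5 CPM in the KO livers, against 50.6, 65.3 and 75.5 CPM in the WT livers (-0.02 ± 0.24, adjusted p = 0.969). Acaa1b held 2347, 1662 and 1932 CPM in the KO livers, against 1313, 1802 and 1538 CPM in the WT livers and was not called (0.35 ± 0.17, adjusted p = 0.184). Neither Pex11a (-0.42 ± 0.20, adjusted p = 0.177) nor Vnn1 (-0.46 ± 0.16, adjusted p = 0.0687) was called.

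Apart from Echs1, each call on chow ended in at least 4 of 6 omissions of a library. Bdh1 (0.0542 to 0.146) and Acaa1a (0.0523 to 0.158) lost their calls in all 6. Ehhadh lost its call without KO chow replicate 1 (0.183), KO chow replicate 2 (0.0529), WT chow replicate 1 (0.136) or WT chow replicate 3 (0.0681), and also with DESeq2 (0.0552) and the compared groups alone (0.0657). Ppara kept its call only without KO chow replicate 1, Acadvl and Etfdh only without WT chow replicate 1, and Acadm also only without WT chow replicate 1, with an adjusted p of up to 0.134, 0.128, 0.128 and 0.0838 otherwise. Slc22a5 kept its call without KO chow replicate 1 or WT chow replicate 2 and reached 0.154 otherwise. With a stricter filter the calls of Ppara, Slc22a5, Acadvl, Etfdh and Acaa1a also ended (0.053 to 0.0641), and with upper quartile scaling those of Etfdh (0.0503) and Acaa1a (0.0541). With the replicate number as a covariate the calls of Ppara, Acadvl, Etfdh, Ehhadh and Bdh1 ended (0.0548 to 0.0632). In all, 5 genes were called for genotype on both diets, and these comparisons use different livers. Ppara, Slc22a5, Echs1 and Acaa1a were lower on each and Ehhadh higher on each.

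**Figure D4:**
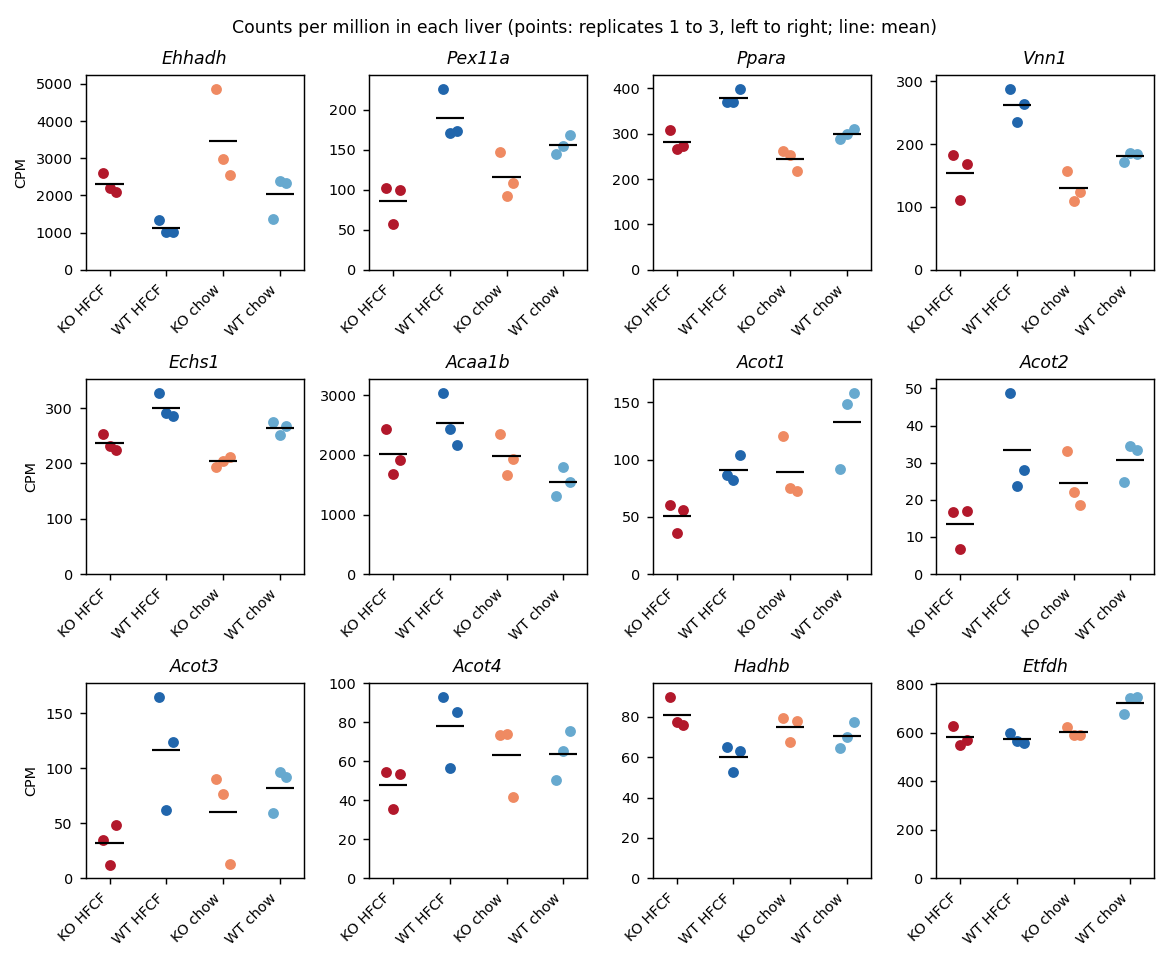
CPM in each liver (points, replicates 1 to 3 from left to right) and the group mean (line) for 12 of the genes, with axes that start at 0. On HFCF the KO points of Ehhadh lie above and those of Pex11a, Ppara, Vnn1 and Echs1 below the WT points, and KO HFCF replicate 2 is the lowest of its group for Acot1, Acot2, Acot3 and Acot4.

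The diet comparison within KO livers gave no call among the 36 genes with edgeR, DESeq2 or limma voom. Of all tested genes 2.65% were called, 1.47% up and 1.18% down, so a count of 0 of 36 lies near that share. At an unadjusted p under 0.05 edgeR gave 3 up and 3 down. The median was -0.03, against 0.00 for all tested genes, with HFCF livers entirely above chow livers in 5 genes and entirely below in 2, against 13.1% and 11.3% of all tested genes. Acot1 had the lowest adjusted p. It held 60.5, 36.2 and 56.1 CPM on HFCF, against 121, 75.2 and 72.4 CPM on chow, without overlap (-0.81 ± 0.24, adjusted p = 0.0822). Acot2 held 16.7, 6.71 and 17 CPM on HFCF, against 33.2, 22.2 and 18.5 CPM on chow, also without overlap (-0.86 ± 0.33, adjusted p = 0.182). Ehhadh held 2614, 2191 and 2079.9 CPM on HFCF, against 4862, 2991 and 2555 CPM on chow, which overlapped (-0.60 ± 0.24, adjusted p = 0.198). Ppara (0.21 ± 0.09, adjusted p = 0.226) and Echs1 (0.22 ± 0.08, adjusted p = 0.169) lay on the higher side on HFCF without a call.

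In WT livers HFCF changed 8 of the 36 genes, 5 up (13.9%) and 3 down (8.33%). Of all tested genes 13.7% were called, 7.76% up and 5.9% down, and of the 2861 genes that averaged 50 CPM or more 11.9% were up and 11.7% down, so the counts of the members lie near the background. The median was -0.02, against 0.00 for all tested genes, with 17 positive and 19 negative values. In 9 genes every HFCF liver lay above every chow liver and in 8 every HFCF liver lay below, against 15.8% and 15.3% of all tested genes. Of 12 hepatocyte markers 5 were called down and 0 up. Of 8 stellate cell and fibroblast markers 5 were called up, with summed levels of 422 to 653 CPM on HFCF and 321 to 408 CPM on chow, and 1 of 2 adipocyte markers was called up. The part of these cell types in the changes was not tested. Both diet comparisons share livers with the genotype comparisons above, so the values are not independent of them.

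The largest rise was that of Acaa1b. It held 3037, 2434 and 2159 CPM on HFCF, against 1313, 1802 and 1538 CPM on chow, without overlap (0.71 ± 0.17, adjusted p = 0.0155). Ppara held 369, 370.2 and 398 CPM on HFCF, against 288, 299 and 309 CPM on chow and was higher on HFCF (0.34 ± 0.09, adjusted p = 0.0196). Hadh held 574, 468 and 448 CPM on HFCF, against 394, 392 and 362 CPM on chow (0.38 ± 0.10, adjusted p = 0.0211). All HFCF livers lay above the chow livers in these 3 genes. Vnn1, at 262 ± 26 CPM on HFCF and 180.3 ± 8.15 CPM on chow (0.54 ± 0.16, adjusted p = 0.0415), and Bdh1, at 379 ± 34.4 CPM on HFCF and 303 ± 22.6 CPM on chow (0.32 ± 0.09, adjusted p = 0.0334), were also higher. The largest fall was that of Ehhadh, at 1329.5, 1014 and 1023 CPM on HFCF, against 1370.2, 2391 and 2323 CPM on chow, without overlap (-0.85 ± 0.24, adjusted p = 0.0292). Etfdh held 599, 567 and 559.7 CPM on HFCF, against 676, 742 and 746 CPM on chow (-0.33 ± 0.08, adjusted p = 0.0161). Its HFCF livers lay below its chow livers, and so did those of Hadha, at 614 ± 14.4 CPM on HFCF and 762 ± 57.3 CPM on chow (-0.31 ± 0.08, adjusted p = 0.0257).

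No call in WT livers held in every omission of a library. Ppara lost its call without WT chow replicate 1 (0.0601), Etfdh without WT chow replicate 2 (0.065) or 3 (0.0607), Hadh without WT chow replicate 3 (0.0834) or WT HFCF replicate 1 (0.0787), and Acaa1b without WT chow replicate 1 (0.0612), WT chow replicate 3 (0.0551) or WT HFCF replicate 1 (0.0598). Ehhadh lost it without WT chow replicate 2 or 3 or WT HFCF replicate 2 or 3 (0.0699 to 0.108), as did Hadha (0.0555 to 0.116). Bdh1 lost it without WT chow replicate 1 or 3 or WT HFCF replicate 1 or 2 (0.0559 to 0.126), and Vnn1 in each omission but that of WT HFCF replicate 2 (0.0669 to 0.126). Hadh (0.0607), Hadha (0.0649) and Bdh1 (0.0681) also lost it with the compared groups alone, and Bdh1 with the replicate number as a covariate (0.0526).

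**Figure D5:**
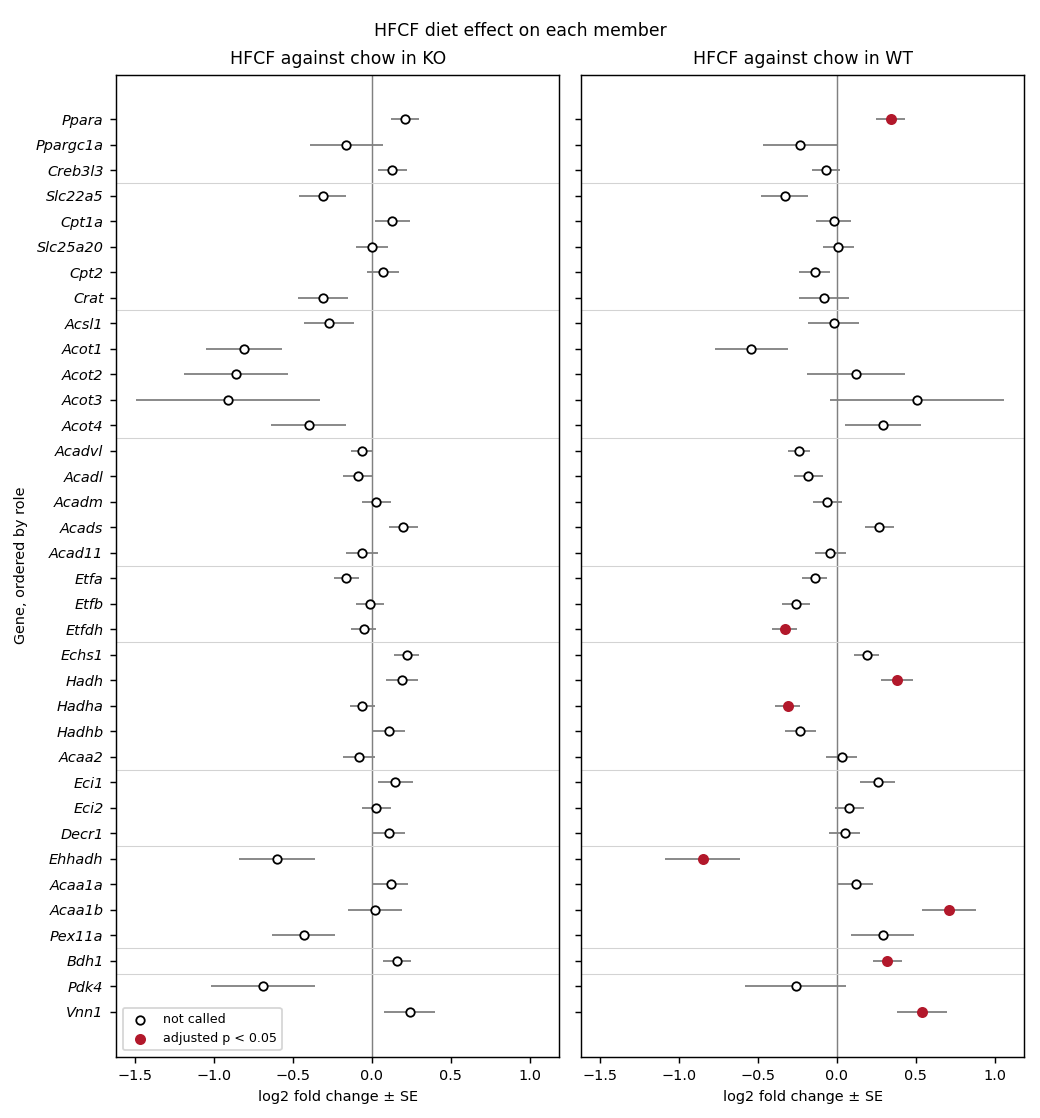
Log2 fold change of HFCF over chow in KO livers (left) and in WT livers (right) for the 36 genes ordered by role, from the edgeR fit of all 12 libraries, with bars of 1 standard error. No point of the KO panel is filled, and in the WT panel 5 filled points (adjusted p under 0.05) lie right of 0 and 3 left of it.

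The test of the difference itself, the genotype by diet interaction, called 0 of the 36 genes with edgeR, DESeq2 or limma voom, against 0.794% of all tested genes with edgeR (0.373% above and 0.421% below 0). At an unadjusted p under 0.05 edgeR gave 2 above and 3 below 0. The lowest adjusted p was that of Acaa1b, whose genotype effect on HFCF minus that on chow was -0.69 ± 0.24 on the log2 scale (adjusted p = 0.224). For Acaa1b the genotype difference was -0.34 ± 0.17 on HFCF and 0.35 ± 0.17 on chow, neither of them called. The values for Pex11a (-0.72 ± 0.29, adjusted p = 0.295), Acot2 (-0.99 ± 0.45, adjusted p = 0.371), Hadhb (0.34 ± 0.14, adjusted p = 0.331) and Etfdh (0.28 ± 0.11, adjusted p = 0.294) did not pass either. A call on 1 diet and none on the other, as for Pex11a, Vnn1, Hadh or the Acot genes, is therefore not shown to be a difference between diets. For Ehhadh the interaction was 0.26 ± 0.33, adjusted p = 0.814.

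Within a group the 36 genes tended to be high or low together in the same liver. In KO HFCF livers replicate 1 was the highest for 30 of the 36 genes and replicate 2 the lowest for 32, where replicate 2 was the lowest for 36.8% of all tested genes. In KO chow livers replicate 1 was the highest for 27, against 30.8% of all tested genes. In WT HFCF livers replicate 1 was the highest for 27, against 38.0%, and in WT chow livers replicate 1 was the lowest for 29, against 32.0%. Summed over the 36 genes, the level was 20106, 15811 and 17870 CPM in KO HFCF livers and 20660 CPM, 18951 CPM and 18012 CPM in WT HFCF livers. It was 22545, 17925 and 18452 CPM in KO chow livers, against 17108, 20023 and 20601 CPM in WT chow livers, and the sums of the genotypes overlapped on each diet. Replicate numbers have no order, and no label says what these livers shared.

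Other genes of the same pathways, taken from lists that exclude the 36, were described by the same fit. Of 24 other tested genes of mitochondrial oxidation and carnitine metabolism, 10 were lower (41.7%) and 0 higher in KO than in WT on HFCF, with a median log2 fold change of -0.25. Of all tested genes 8.52% were lower there, and of those that averaged 50 CPM or more 18.2%. On chow 8 were lower (33.3%) and 0 higher, with a median of -0.11, against 5.82% of all tested genes and 15.3% of the highly expressed ones. Acsm3, a medium-chain acyl-CoA synthetase gene, averaged 192 CPM in KO HFCF and 339.9 CPM in WT HFCF livers (-0.82 ± 0.07, adjusted p = 8.14e-06), and 167 CPM in KO chow and 252 CPM in WT chow livers (-0.59 ± 0.07, adjusted p = 0.000212). Acsm5, of the same family, was lower in KO on HFCF (-0.49 ± 0.07, adjusted p = 0.000277), and so were the dehydrogenase family genes Acad10 (-0.67 ± 0.10, adjusted p = 0.000408) and Acad12 (-1.15 ± 0.17, adjusted p = 0.000464). On chow Acad8 (-0.48 ± 0.07, adjusted p = 0.000539) and Pccb (-0.38 ± 0.07, adjusted p = 0.00338), which act on branched-chain and propionyl groups, were lower. The diet raised 6 and lowered 0 of the 24 in WT livers, among them Acsm5 (0.72 ± 0.07, adjusted p = 3e-05), where 7.76% of all tested genes rose. In KO livers it raised 3 and lowered 1, against 1.47% and 1.18% of all tested genes. The raised genes were Acsm1 (0.50 ± 0.08, adjusted p = 0.00337), Hsd17b10 (0.46 ± 0.09, adjusted p = 0.0124) and Acad10 (0.45 ± 0.10, adjusted p = 0.0293). The lowered gene was Cpt1b (-1.13 ± 0.26, adjusted p = 0.0387). The call of Hsd17b10 ended without KO chow replicate 1 (0.0608). That of Acad10 ended without KO chow replicate 1 or 2 or KO HFCF replicate 1 or 2 (0.0997 to 0.117). That of Cpt1b ended in each omission of a KO library except KO chow replicate 2 (0.0545 to 0.171), and with limma voom.

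Of 33 other tested peroxisomal genes, 6 were lower (18.2%) and 0 higher in KO on HFCF, with a median of -0.16, and 2 were lower (6.06%) and 0 higher on chow, with a median of -0.11. On HFCF 8.52% of all tested genes and 18.2% of the highly expressed ones were lower, and on chow 5.82% of all tested genes, so the chow share lies near the background and the HFCF share near that of highly expressed genes. The 4 with the lowest adjusted p on HFCF were Pex7 (-0.39 ± 0.07, adjusted p = 0.00127) and Pex5 (-0.35 ± 0.07, adjusted p = 0.00249), the genes of import receptors, Nudt19, the gene of a coenzyme A hydrolase (-0.36 ± 0.08, adjusted p = 0.00726), and Pex14, the gene of a docking protein for import (-0.39 ± 0.09, adjusted p = 0.00805). In WT livers HFCF raised 4 (12.1%) and lowered 1 (3.03%), against 7.76% and 5.9% of all tested genes. In KO livers HFCF raised 2 (6.06%) and lowered 1 (3.03%), against 1.47% and 1.18%.

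Of 8 other ketone body genes, 5 were lower (62.5%, against 8.52% of all tested genes) and 0 higher in KO on HFCF, with a median of -0.54. Bdh2, a cytosolic dehydrogenase gene, was lower on both diets (-1.37 ± 0.19, adjusted p = 0.000233 on HFCF and -1.01 ± 0.19, adjusted p = 0.00298 on chow), and Slc16a7, a monocarboxylate transporter gene, was lower on HFCF (-0.67 ± 0.13, adjusted p = 0.00322). Aacs, which uses acetoacetate for lipid synthesis, averaged 27.1 CPM in KO HFCF and 112 CPM in WT HFCF livers (-2.05 ± 0.40, adjusted p = 0.00305). On chow 2 of the 8 were lower and 1 was higher, against 5.82% and 9.72% of all tested genes. The higher gene was Oxct1, the gene of the enzyme that uses ketone bodies for energy, at 10.8 CPM in KO chow and 5.66 CPM in WT chow livers (0.93 ± 0.15, adjusted p = 0.00123). In WT livers HFCF raised 3 (37.5%) and lowered 1 (12.5%), against 7.76% and 5.9% of all tested genes. In KO livers it raised 0 and lowered 1 (12.5%), against 1.47% and 1.18%. The gene lowered in KO livers was the transporter gene Slc16a1 (-0.74 ± 0.18, adjusted p = 0.044). That call ended without KO chow replicate 1 or 2 or KO HFCF replicate 1 or 2 (0.0818 to 0.189).

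Of 25 other reported PPAR-alpha target genes, 10 were lower (40.0%, against 8.52% of all tested genes) and 3 higher (against 10.6%) in KO on HFCF, with a median of -0.41. Cd36, a fatty acid uptake receptor gene, averaged 104 CPM in KO HFCF and 459.8 CPM in WT HFCF livers (-2.15 ± 0.17, adjusted p = 3.18e-06), Cidec, a lipid droplet gene, 12.5 CPM in KO HFCF and 152 CPM in WT HFCF livers (-3.60 ± 0.37, adjusted p = 2.86e-05), and G0s2, an inhibitor of lipolysis, 109 CPM in KO HFCF and 334 CPM in WT HFCF livers (-1.61 ± 0.26, adjusted p = 0.000897). These 3 genes are known for the uptake or storage of lipid rather than for its oxidation. On chow 2 were lower and 2 higher (8.0% each, near the 5.82% and 9.72% of all tested genes). In WT livers HFCF raised 5 and lowered 7 of the 25, where 7.76% of all tested genes rose and 5.9% fell. Of the 2861 genes that averaged 50 CPM or more, 11.9% rose and 11.7% fell there, so both WT counts lie above these shares. In KO livers HFCF raised 0 and lowered 1 of the 25, against 1.47% and 1.18% of all tested genes. Of 18 partner and cofactor genes of PPAR-alpha, 1 was lower (5.56%) and 3 were higher (16.7%) in KO on HFCF, and 1 was lower and 1 higher on chow (5.56% each). These counts lie near the background of 8.52% lower and 10.6% higher on HFCF and 5.82% lower and 9.72% higher on chow. The gene that was lower on each diet was Pparg, a related receptor gene known for lipid storage, at 5.01 CPM in KO HFCF and 28 CPM in WT HFCF livers (-2.49 ± 0.27, adjusted p = 4.48e-05) and at 3.78 CPM in KO chow and 16.3 CPM in WT chow livers (-2.11 ± 0.29, adjusted p = 0.000405). Of the adipocyte markers, the 2 in the table summed to 7.2 to 26.3 CPM in KO HFCF and 323 to 413 CPM in WT HFCF livers, and to 17 to 23.7 CPM in KO chow and 103.5 to 133.6 CPM in WT chow livers, and their part in these values was not tested.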

How the data were processed

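RNA from frozen livers of 12 mice was depleted of ribosomal RNA and sequenced as stranded libraries, per the labels' protocols. For each gene and library the deposited table gives a whole-number read count, per the file headers. Beside it stands an FPKM value that the authors derived, used here only to set genes of different length side by side. The submitters' processing notes name mm10 as the build. The sources used here do not give the aligner, the counting tool or its strand setting.

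Counts were filtered with filterByExpr (minimum count 10, which left 14736 of 15846 genes), given TMM factors and tested with edgeR 4.0.16 under R 4.3.3 (glmQLFit, glmQLFTest) on 4 group means. The contrasts were KO against WT on each diet, HFCF against chow in each genotype, and their interaction, with Benjamini-Hochberg adjustment over all tested genes. The pipeline was tested on simulated data. Libraries held 13967116 to 18324134 counts, and within each group they differed by more than sampling noise. The labels give 3 separate mice per group. Over all tested genes, deviations of same-numbered livers had weak correlations of both signs (-0.2 to 0.229). The numbers were therefore not taken as pairs. Among the 36 genes, replicate 1 was the highest for 30 in KO HFCF, 27 in WT HFCF and 27 in KO chow livers. In WT chow livers replicate 1 was the lowest for 29. The replicate number was used as a covariate in an alternative fit.

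Members, roles and pathway lists were chosen with earlier results of these data known, and their counts are descriptions. Values in every library were given for the 3 genes with the highest mean FPKM and for the Acot and Acaa1 paralogs. Exceptions were Acaa2, whose chow values were not given, and Acaa1a, whose chow values were given as mean and SD. In the livers compared, such values were also given for the 4 with the lowest adjusted p among those called in each contrast. A few others were chosen after their values were seen. From each pathway list up to 4 called genes per contrast with the lowest adjusted p could be named, and the printed ones were picked from these with their values in view. Some genes of these lists enter the counts but are not reported here by name. The background of genes that averaged 50 CPM or more was also chosen after seeing the data. Shared sequence was counted over 50-base stretches of GENCODE M21 transcripts. Alternative settings were a minimum count of 50 or no filter, scaling by RLE or upper quartile, the replicate number as a covariate, limma voom (limma 3.58.1), DESeq2 1.42.0, fits restricted to the compared groups, and omission of each library in turn. Figures used matplotlib 3.10.9 and pandas 2.3.3 under Python 3.11.15. Starts in the table count from 0, and coordinates are given counted from 1.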

Additional observations from a re-analysis of the deposited data

Results flagged for a closer look

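None of the 36 genes passed the test of the genotype by diet interaction. Among the other pathway genes, 2 did with edgeR. The genotype effect on Aacs, the acetoacetyl-CoA synthetase gene, differed between HFCF and chow by -2.68 on the log2 scale (adjusted p = 0.0497), with means of 27.1 CPM in KO HFCF and 112 CPM in WT HFCF livers, and of 28.6 CPM in KO chow and 18.3 CPM in WT chow livers. This call ended with no filter (0.0501), a stricter filter (0.0509), the replicate block (0.068) and limma voom (0.0691), and in each omission of a library except KO chow replicate 2 and WT HFCF replicate 3. The genotype effect on Cidec, the lipid droplet gene, differed by -2.62 (adjusted p = 0.0401), with means of 12.5 CPM in KO HFCF and 152 CPM in WT HFCF livers, and of 17.7 CPM in KO chow and 35 CPM in WT chow livers. This call ended in each omission of a library except KO chow replicate 2, WT HFCF replicate 1 and WT HFCF replicate 3, with an adjusted p of up to 0.101.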

How the results depend on the processing

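Of 2700 log2 fold changes of the 36 genes recomputed under the alternatives, 0 of a called gene changed sign, 107 lost a call and 26 gained one. Of 97 calls of other pathway genes, 59 held under every alternative and 0 changed sign. When a library was left out, the number of members called, gained calls included, was 9 to 14 for KO against WT on HFCF (14 with all libraries), 1 to 5 on chow (9 with all), 1 to 6 for HFCF against chow in WT (8 with all), and 0 for the diet in KO and for the interaction. With the compared groups alone 5 members were called for the diet in WT, and with a stricter filter 4 for the genotype on chow. Over all genes, omissions gave 2042 to 2631 calls for the genotype on HFCF (2814 with all libraries), 1152 to 1691 on chow (2289), 1100 to 2264 for the diet in WT (2013), 157 to 336 for the diet in KO (390) and 11 to 136 for the interaction (117). For the diet in KO, DESeq2 called 656 genes and the compared groups alone 603, and for the interaction DESeq2 called 344. The causes of these differences were not tested, beyond the loss of a library in the omissions.

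No label says what same-numbered livers shared. With the replicate block, 13 members were called for the genotype on HFCF, 5 on chow, 7 for the diet in WT, and 0 for the diet in KO and for the interaction, and all-gene counts were 2673, 2113, 1813, 386 and 97. On chow the calls of Ppara, Acadvl, Etfdh, Ehhadh and Bdh1 ended with the block (adjusted p 0.0548 to 0.0632), so that 0 members were called higher, and that of Vnn1 was gained. The calls of Acot3 on HFCF (0.0504), of Bdh1 for the diet in WT (0.0526) and of Aacs for the interaction (0.068) ended too. Over the 5 comparisons the median of all genes lay between -0.0077 and 0.039 on the log2 scale with other scalings. Depth limits weakly expressed members most, such as Pdk4 at 3.78 to 14.2 CPM.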
